A study of Mus musculus with 16 samples.

Results

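The 10 genes described here mark the cells of the thymus, and they were followed in RNA of whole lungs, in 16 samples with 1 Affymetrix whole-genome mouse array each. They are Rag1, Rag2, Dntt, Ptcra, Cd8a, Cd8b1 and Arpp21 of immature thymocytes, and Prss16, Psmb11 and Tbata of the thymic stroma. They make 10 of the 18193 genes named on the arrays, and each is represented by the single-symbol probe set with the highest mean over the 16 arrays, with no expression filter. The genes were chosen by their levels on these same arrays, so those levels are a description and carry no test.

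All the mice were females of BALB/c, an inbred laboratory strain. The first group was pregnant and had received 50 ug of TiO2 particles in 50 uL as 1 intranasal dose, and the second was pregnant and had received the phosphate-buffered saline (PBS) vehicle. The third group was non-pregnant and had received TiO2, and the fourth was non-pregnant and had received PBS. Each group holds 4 arrays, pregnant mice were at gestation day 14, and RNA was taken 19 h after the dose. The study asked whether pregnancy changes the lung's reaction to a dust usually taken as inert. The labels do not say that the 4 samples of a group came from separate mice, so p-values measure the spread between these samples, which may be technical. Replicate numbers only name the arrays. The labels of non-pregnant PBS replicate 2 conflict, since its source name calls the mouse pregnant while its gestation entry does not, and it was kept as non-pregnant.

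The thymus lies in the chest beside the great vessels and heart, close to the lungs. T cell precursors mature there. In its cortex, immature thymocytes rearrange their T cell receptor genes while cortical epithelial cells present peptides that decide which thymocytes survive. Recombination genes are switched off once a receptor has been completed, so mature T cells of the blood, the lymph nodes and the lung lack them, and the cortical protease and proteasome genes are hardly used outside the thymus. In total lung RNA a higher signal can come from more cells of a type or from more RNA per cell, and these cannot be told apart.

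Values are log2(intensity + 16) after quantile normalization. On this scale 4 is the floor and 5.94 is the median of every array. The deposited median signals ran from 32 to 56.5 intensity units. The lung markers Sftpc, surfactant protein C of alveolar cells, and Scgb1a1, the club cell secretory protein, were bright on all 16 arrays, at 13.15 to 13.49 and at 13.44 to 13.55. Arrays of non-pregnant PBS replicates 3 and 4 stood apart from the other 14 in the thymic genes, as described next, and each group result is therefore given with and without them.

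Promoter letters are shown for 4 of the 10 genes, the recombinase pair, the pre-T cell receptor chain and the thymic proteasome subunit. Like the rest of the 10, they read highest on non-pregnant PBS replicates 3 and 4. Even there Rag2, at 5.81 and 6.00, Ptcra, at 5.70 and 6.13, and Psmb11, at 5.96 and 6.62, were dim. The sequences are RefSeq's for GRCm38.p6, from 250 bases before to 50 bases after the start of the gene, read 5′ to 3′ on the gene's strand. Capitals mark 3 motifs searched on both strands, none of which overlaps another here. CAGCTG, which reads the same on both strands, is one form of the E box to which E proteins such as Tcf12 bind. Another form is CACCTG, which appears as CAGGTG when it lies on the opposite strand. The core to which Runx factors bind is TGTGGT, which would appear as ACCACA on the opposite strand. Rag1 is at chr2:101649483-101649782 on the minus strand and Rag2 at chr2:101624462-101624761 on the plus strand, and the annotation places these genes next to each other. Ptcra is at chr17:46763663-46763962 on the minus strand, and Psmb11, next to Psmb5, is at chr14:54625060-54625359 on the plus strand.
Rag1: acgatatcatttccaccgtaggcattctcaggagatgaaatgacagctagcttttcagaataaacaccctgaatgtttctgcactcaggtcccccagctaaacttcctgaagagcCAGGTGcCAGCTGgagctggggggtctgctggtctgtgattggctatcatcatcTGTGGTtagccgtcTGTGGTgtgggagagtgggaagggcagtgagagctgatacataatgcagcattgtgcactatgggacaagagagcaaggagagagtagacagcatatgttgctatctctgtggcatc
Rag2: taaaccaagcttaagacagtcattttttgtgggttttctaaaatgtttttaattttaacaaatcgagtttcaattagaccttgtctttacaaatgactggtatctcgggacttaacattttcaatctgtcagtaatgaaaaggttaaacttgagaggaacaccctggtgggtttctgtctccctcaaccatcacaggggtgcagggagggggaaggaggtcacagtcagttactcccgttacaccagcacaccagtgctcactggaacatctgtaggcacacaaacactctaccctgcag
Ptcra: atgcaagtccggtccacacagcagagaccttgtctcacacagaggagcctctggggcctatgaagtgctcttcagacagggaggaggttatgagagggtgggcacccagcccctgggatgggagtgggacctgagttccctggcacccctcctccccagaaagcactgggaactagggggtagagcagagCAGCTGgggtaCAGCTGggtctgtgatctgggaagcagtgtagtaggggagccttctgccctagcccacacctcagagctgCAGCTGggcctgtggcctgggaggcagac
Psmb11: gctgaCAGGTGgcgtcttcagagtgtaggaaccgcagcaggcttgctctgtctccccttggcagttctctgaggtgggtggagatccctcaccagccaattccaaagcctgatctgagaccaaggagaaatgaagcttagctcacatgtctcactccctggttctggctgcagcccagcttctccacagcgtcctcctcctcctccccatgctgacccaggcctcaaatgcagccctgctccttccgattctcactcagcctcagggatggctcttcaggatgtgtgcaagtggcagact
The Rag1 window held 1 CAGCTG, beside it 1 CACCTG on the opposite strand, and further on 2 copies of TGTGGT, whereas the Rag2 window held none of the 3 motifs. The Ptcra window held 3 copies of CAGCTG, and the Psmb11 window held 1 CACCTG, also on the opposite strand. Of all 32851 promoter windows of this length, 16.3% held the first of these motifs, 20.2% the second and 16.8% the Runx core, in either orientation. A match is a description of letters and not a bound site. Of the 10 genes 8 had a window; Dntt had none of the 3 motifs in its own.

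Thymic transcripts were high on 2 arrays, non-pregnant PBS replicates 3 and 4, and low on the other 14. On each array the genes lying more than 1 log2 unit above their own median of the 16 arrays were counted. The count was 9 of the 10 thymic genes on non-pregnant PBS replicate 3, where 0.478% of all named genes did so, and 10 of 10 on replicate 4, where 0.484% did so. On each of the other 14 arrays it was 0 of 10. The share of all genes over the margin was 0.253%, 0.0989%, 0.11% and 0.132% on the pregnant TiO2 arrays and 0.247%, 0.236%, 0.0934% and 0.17% on the pregnant PBS arrays. It was 0.126%, 0.066%, 0.066% and 0.0495% on the non-pregnant TiO2 arrays and 0.335% and 0.253% on non-pregnant PBS replicates 1 and 2. For all 10 genes replicate 4 ranked first and replicate 3 ranked second of the 16 arrays. These counts describe the pattern for which the genes were listed.

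**Figure D1:**
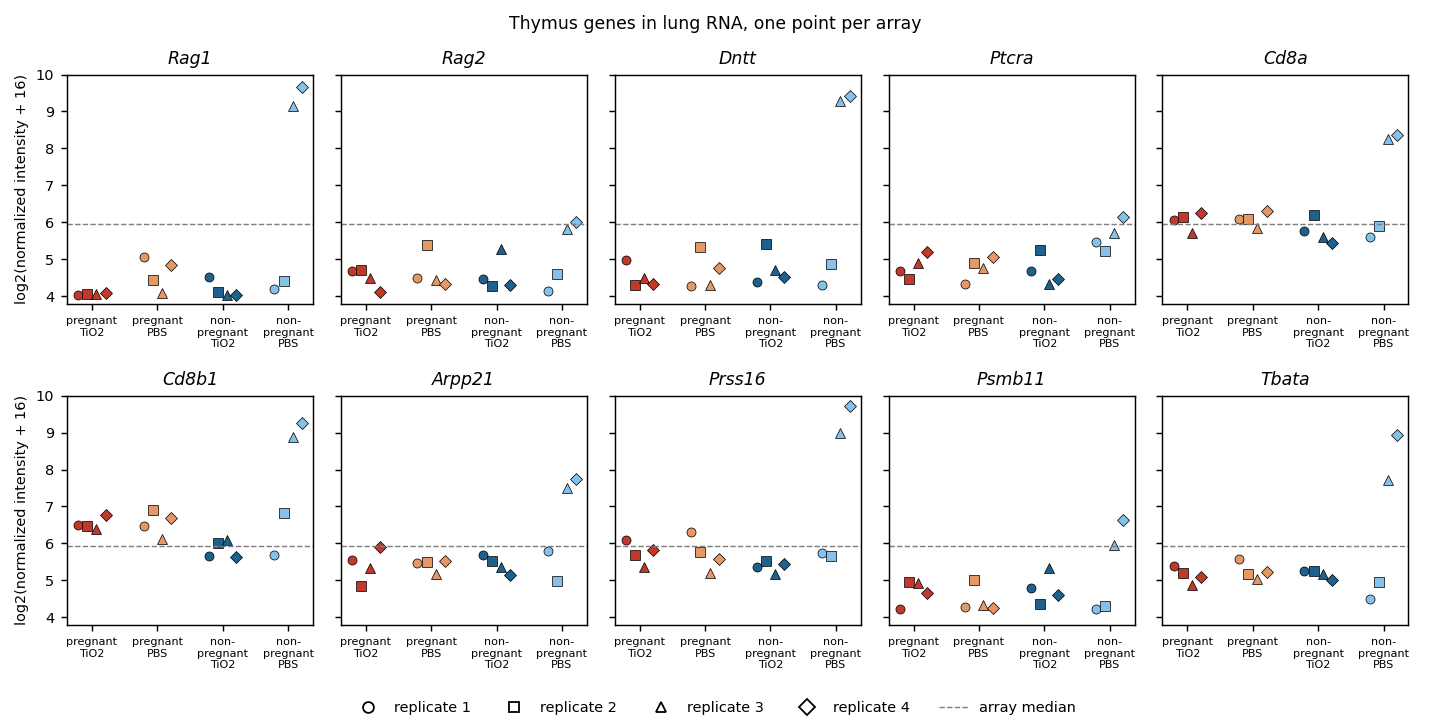
Levels of the 10 thymic genes, as log2(normalized intensity + 16), on each of the 16 arrays by group; each point is 1 array, its shape gives the replicate number, and the dashed line is the array median of 5.94. In every panel the uppermost points are non-pregnant PBS replicates 3 and 4, for example 9.16 and 9.66 for Rag1.

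Rag1 and Rag2 encode the recombinase that cuts antigen receptor genes for rearrangement. Rag1 (probe set 1450680_at) read 4.04, 4.05, 4.05 and 4.08 after TiO2 and 5.05, 4.45, 4.08 and 4.84 after PBS in pregnant mice, and 4.53, 4.11, 4.02 and 4.04 after TiO2 and 4.18, 4.41, 9.16 and 9.66 after PBS in non-pregnant mice. The other 14 arrays were thus near the floor, and the non-pregnant PBS group was split, with its first pair of arrays among those. In normalized intensity Rag1 stood at 555 and 793 on the 2 high arrays and between 0.25 and 17.2 on the other 14. Rag2 (1418065_at) read 5.81 and 6.00 on the same 2 arrays and 4.12 to 5.38 on the other 14. Its separation was small, and pregnant PBS replicate 2 and non-pregnant TiO2 replicate 3 came nearest, at 5.38 and 5.27.

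Dntt encodes terminal deoxynucleotidyl transferase, which adds bases without a template where receptor segments are joined. Dntt (1450545_a_at) read 4.99, 4.29, 4.49 and 4.33 after TiO2 and 4.27, 5.32, 4.29 and 4.77 after PBS in pregnant mice, and 4.37, 5.40, 4.72 and 4.51 after TiO2 and 4.29, 4.86, 9.28 and 9.43 after PBS in non-pregnant mice. As for Rag1, only the last pair of the non-pregnant PBS arrays was above the array median. A pair of further Dntt probe sets gave the same picture, at 6.06 and 5.92 against at most 4.30 elsewhere, and at 8.65 and 8.23 against at most 4.63.

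Ptcra encodes the invariant chain that pairs with a newly made T cell receptor beta chain to form the pre-T cell receptor. It (1421760_at) read 4.69, 4.47, 4.90 and 5.19 after TiO2 and 4.34, 4.91, 4.76 and 5.06 after PBS in pregnant mice, and 4.67, 5.26, 4.32 and 4.46 after TiO2 and 5.47, 5.22, 5.70 and 6.13 after PBS in non-pregnant mice. Here the 4 non-pregnant PBS arrays ran on without a gap, and replicate 1 of that group, at 5.47, lay just below replicate 3. Ptcra was the gene that missed the margin on replicate 3, and its probe set was above the array median on 1 array only.

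Cd8a and Cd8b1 encode the chains of the CD8 coreceptor, which cortical thymocytes carry together with CD4 and which killer T cells keep. Cd8b1 (1426170_a_at) read 6.51, 6.48, 6.38 and 6.76 after TiO2 and 6.48, 6.91, 6.13 and 6.69 after PBS in pregnant mice, and 5.67, 6.01, 6.10 and 5.64 after TiO2 and 5.68, 6.82, 8.89 and 9.26 after PBS in non-pregnant mice. Its signal exceeded the array median on 13 of the 16 arrays. Cd8a (1444078_at), which adjoins Cd8b1 in the genome, read 8.25 and 8.36 on the 2 high arrays and 5.43 to 6.30 on the other 14, and was above the array median on 9 arrays. For these coreceptor genes, which mature T cells also use, the 14 arrays were not at the floor. Among 4 further Cd8a probe sets, 3 had the same 2 arrays on top; in the remaining one, 1440164_x_at, non-pregnant PBS replicate 1 reached 6.85, against 6.47 on replicate 3 and 6.94 on replicate 4.

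Arpp21 encodes a cyclic AMP-regulated phosphoprotein known from the striatum of the brain and from immature thymocytes. Arpp21 (1419028_at) read 7.51 and 7.73 on the 2 high arrays and 4.84 to 5.90 elsewhere, a range within which the 4 groups overlapped. Of its 4 other probe sets, 2 ranked the same arrays first and 2 did not, and none of the 4 exceeded 6.14 on any array.

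The stromal genes followed the same 2 arrays. Prss16 encodes the thymus-specific serine protease of cortical epithelium, which shapes the peptides shown to CD4 cells. It (1448355_at) read 6.09, 5.68, 5.37 and 5.83 after TiO2 and 6.32, 5.76, 5.20 and 5.58 after PBS in pregnant mice, and 5.35, 5.52, 5.18 and 5.43 after TiO2 and 5.73, 5.67, 8.98 and 9.72 after PBS in non-pregnant mice. In normalized intensity that is 489 and 827 on replicates 3 and 4, with 20.3 to 64 on the other 14 arrays.

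Tbata, named after thymus, brain and testis, encodes a protein of thymic stromal cells. It (1427130_x_at) read 5.38, 5.20, 4.87 and 5.09 after TiO2 and 5.59, 5.17, 5.03 and 5.22 after PBS in pregnant mice, and 5.26, 5.24, 5.16 and 5.01 after TiO2 and 4.50, 4.96, 7.71 and 8.94 after PBS in non-pregnant mice. The first pair of non-pregnant PBS arrays was among the lowest of the 16 and the last pair was the highest. A second probe set, 1450281_a_at, read 7.59 and 8.86 on the 2 high arrays and at most 4.86 elsewhere, while another, 1429956_at, did not set replicate 3 apart, at 5.49 with up to 5.71 elsewhere.

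Psmb11 encodes the beta5t subunit, which replaces the common subunit Psmb5 in the proteasome of cortical thymic epithelium. It (1453150_at) read 5.96 and 6.62 on the 2 high arrays and 4.23 to 5.32 elsewhere. None of the 6 other proteasome beta subunits listed, Psmb5 among them, was over the margin on any of the 16 arrays. Across the 10 genes there were 13 further probe sets, and 9 of these had the same 2 arrays on top, with both more than 1 log2 unit above the probe set's own median in 8.

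The mean of the 10 genes summarises the pattern. It was 5.05 to 5.22 on the pregnant TiO2 arrays, 4.93 to 5.45 on the pregnant PBS arrays and 4.86 to 5.19 on the non-pregnant TiO2 arrays. On the non-pregnant PBS arrays it was 4.96, 5.17, 7.73 and 8.18. The group means were 5.14 ± 0.09, 5.22 ± 0.22, 5.05 ± 0.14 and 6.51 ± 1.68 (SD, n = 4 each), so the spread of the non-pregnant PBS group came from replicates 3 and 4, and its other pair lay within the range of the remaining groups.

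The genes that the listed 10 leave out were read from 15 further lists of cell type markers. These lists too were chosen with earlier results of these data known, so their counts are a description. Of 17 other thymocyte genes, 7 were over the margin on replicate 3 and 8 on replicate 4, against 0 on each of the other 14 arrays. These were Cd4, Themis, Satb1, Bcl11b, Ccr9, Cd5 and Cd6, joined on replicate 4 by Tespa1. Cd1d1, Lef1, Tcf12, Notch1, Notch3, Dtx1, Il2ra, Cd24a and Tox of this list were over the margin on neither array. Ccr9, the receptor that guides precursors and thymocytes, read 9.02 and 9.37 with 4.50 to 5.91 elsewhere, and its ligand Ccl25, made by thymic epithelium, read 8.12 and 9.15 with 4.25 to 5.85 elsewhere. Cd4, the partner of CD8 on cortical thymocytes, read 7.69 and 8.00 with 4.56 to 6.26 elsewhere.

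Of 14 other thymic epithelium genes, 2 were over the margin on replicate 3 and 3 on replicate 4, again against 0 elsewhere. They were Ccl25 and Pax1, a transcription factor of the pharyngeal pouches from which the thymus forms, with Fezf2 added on replicate 4. Pax1 read 5.82 and 6.10, with 4.10 to 5.03 elsewhere. Foxn1, the master regulator of thymic epithelium, Aire, which drives self-antigen expression in the medulla, and Fezf2 stayed under the array median on all 16 arrays. Foxn1 read 5.06 and 5.55 on the 2 arrays and 4.96 to 5.48 on the other 14, so its probe set did not tell the arrays apart. The lung itself gave signals above the array median on all of the other 14 arrays for 9 of the 17 thymocyte genes and 6 of the 14 epithelium genes.

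Some of the listed markers of mature T cells and of dividing cells moved with the thymic genes. Of 17 mature T cell genes, 8 were over the margin on replicate 3 and 7 on replicate 4, against 0 elsewhere, among them the receptor components Cd3d, Cd3e, Cd3g and Cd247 and the surface protein Thy1. Cd2, Zap70, Icos, Il7r, Ccr7, S1pr1, Klf2, Cd40lg and Ctla4 of that list were over the margin on neither array. The summed intensity of that list was 5854 to 6949 after TiO2 and 5489 to 6634 after PBS in pregnant mice, and 5653 to 6505 after TiO2 and 4874 to 8947 after PBS in non-pregnant mice. Of 19 cell cycle genes, 4 were over the margin on replicate 3 and 7 on replicate 4, against 0 elsewhere. Top2a, Birc5, Ccna2 and Rrm2 were common to both arrays, and Mki67, Ccnb2 and Aurkb were added on replicate 4. The part of mature T cells or of dividing lung cells in the signal of the thymic genes was not tested; the mature T cell list includes 11 genes, and the cell cycle list 14, that were above the array median on all 14 other arrays.

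By the count over the margin, the remaining lists did not single out these 2 arrays. By list mean, replicate 3 was narrowly the highest array for the B cell, dendritic cell and proteasome lists, and replicate 4 for none of the remaining lists. Of 11 B cell genes 0 were over the margin on either array and at most 1 elsewhere, and of 6 genes of early B cells, which also use Rag1, Rag2 and Dntt, in the bone marrow, 0 were over it on any array. Vpreb1 and Igll1, the surrogate light chain of early B cells, were under the array median on all 16 arrays. The other 4 genes of that list, among them Vpreb3 and Ebf1, were above it on all of the other 14 arrays. Of 6 lymph node genes Glycam1, a ligand of the homing receptor made in lymph node venules, was over the margin on replicate 3 alone of these 2. It read 10.57 and 8.91 on replicates 3 and 4 and 4.14 to 10.76 on the other 14, and up to 2 genes of that list were over the margin elsewhere. Fat genes were over it for 2 of 8 on replicate 3, 0 on replicate 4 and up to 3 on the other arrays. The lists of dendritic cells, skeletal muscle, cardiac muscle, squamous epithelium, thyroid and parathyroid, and lung epithelium had 0 on both arrays, and of these skeletal muscle, cardiac muscle and thyroid had between 0 and 2 elsewhere.

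**Figure D2:**
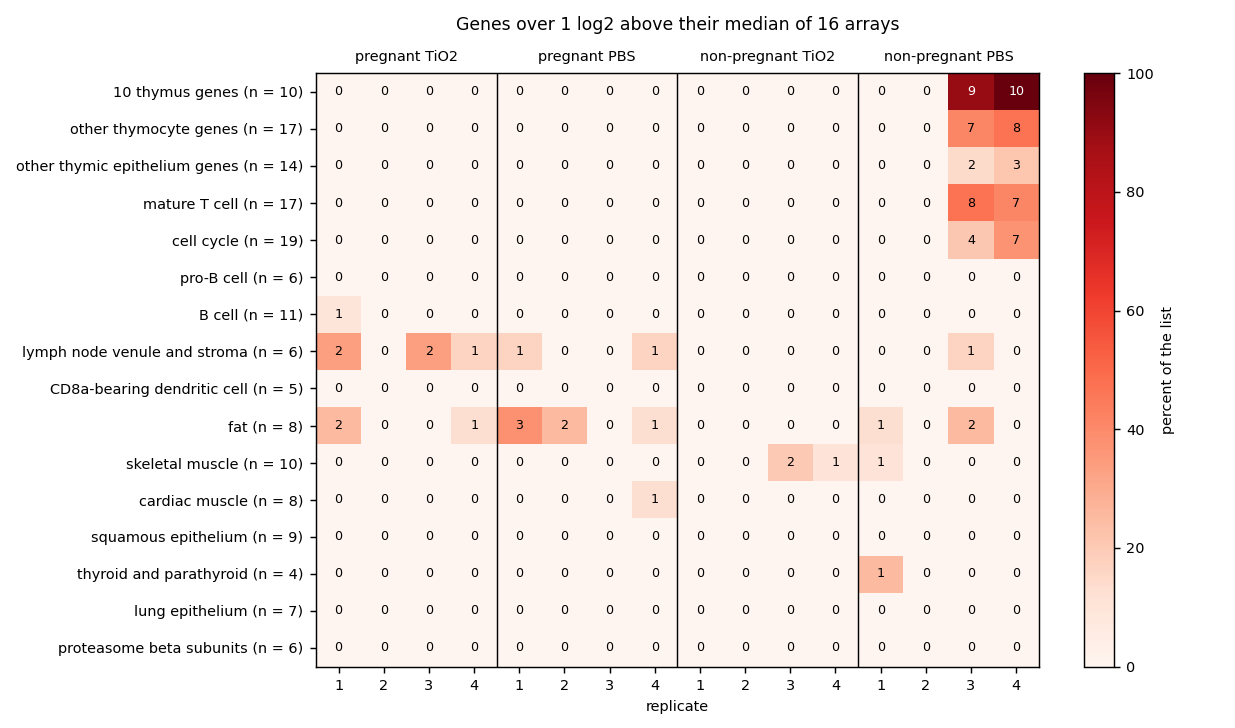
Number of genes of each list that lay over 1 log2 unit above their own median of the 16 arrays, by array; rows are lists with their measured size, columns are arrays by group and replicate, and colour gives the percent of the list. The 10 thymic genes, the other thymocyte and thymic epithelium genes, the mature T cell genes and the cell cycle genes have counts on non-pregnant PBS replicates 3 and 4 only, while lymph node and fat genes have counts on replicate 3 and on other arrays, and muscle genes on other arrays only.

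Among all genes, 87 were over the margin on replicate 3 and 88 on replicate 4, against 9 to 61 on the other arrays. In both were 55 genes, 63.2% of replicate 3's and 62.5% of replicate 4's. Of the 55, 9 are the thymic genes, 20 belong to the other lists and 26 to none. The 10 genes outside the set whose profile over the 16 arrays lay nearest to the mean profile of the thymic genes, each centred on its own median, were Themis at a mean absolute difference of 0.21, Trbv1 at 0.23, Satb1 at 0.24, Cd3g at 0.27, Camk4 at 0.28, Bcl11b at 0.29, Wfdc18 and Ccl25 at 0.30, and Gtf2h4 and Skap1 at 0.32. For the thymic genes themselves this distance ran from 0.20 for Tbata to 0.52 for Rag1.

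The 2 arrays also differed from each other. All 10 thymic genes read higher on replicate 4 than on replicate 3, with a median difference of 0.40 against -0.05 over all genes. The direction depended on the probe set for Dntt and Cd8a. Of the 13 further probe sets 10 read higher on replicate 4 and 3 lower, namely both further ones of Dntt, at 5.92 and 8.23 on replicate 4 with 6.06 and 8.65 on replicate 3, and 1425335_at of Cd8a, at 8.28 on replicate 4 with 8.49 on replicate 3. The stromal genes differed by 1.23 for Tbata, 0.74 for Prss16 and 0.66 for Psmb11, each more than any of the 7 thymocyte genes on the probe sets that stand for them, which lay between 0.11 for Cd8a and 0.50 for Rag1. Outside the set Ccl25 differed by 1.03 and Pax1 by 0.28, while Cd4 and Ccr9 differed by 0.31 and 0.35 and Bcl11b by -0.17. Over the 17 other thymocyte genes the median was 0.06, and 10 of them were higher on replicate 4. Over the 14 other thymic epithelium genes it was 0.23, and 10 were higher. The median was 0.20 for the mature T cell genes and 0.19 for the cell cycle genes. It was -0.56 for the B cell genes, of which 1 of 11 was higher on replicate 4. These are single arrays, so the differences have no replicate check.

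**Figure D3:**
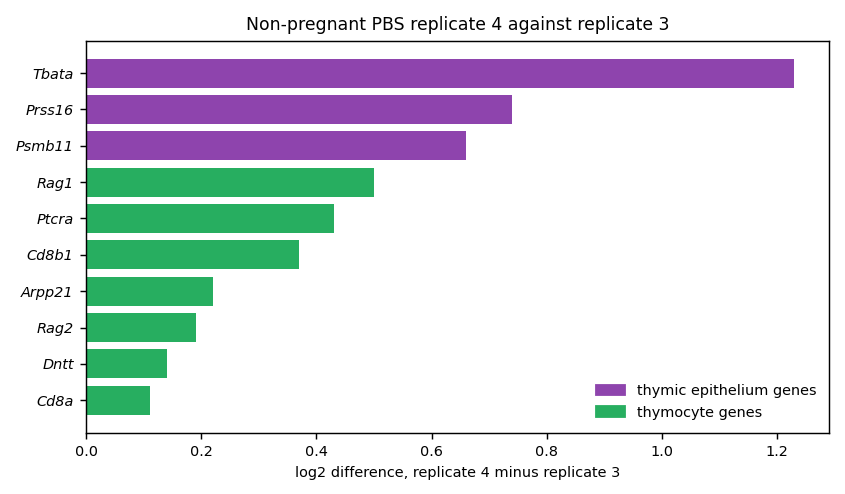
Difference in log2(normalized intensity + 16) between the arrays with high thymic signal, non-pregnant PBS replicate 4 minus replicate 3, for each of the 10 genes; colour separates stromal from thymocyte genes. On these probe sets all bars lie above 0, with Tbata longest at 1.23 and Cd8a shortest at 0.11.

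Group differences were read from limma's fit of the 4 group means over all 18193 genes, with Benjamini-Hochberg adjustment over all of them. In pregnant mice, TiO2 against PBS, 0 of the 10 thymic genes passed an adjusted p of 0.05, as did 0% of all genes, and 0 of the 10 had an unadjusted p under 0.05 where 5.91% of all genes did. Non-pregnant PBS replicates 3 and 4 widened the SE of each of the 10 genes in this fit. These counts therefore do not set them below all genes. The median of the 10 differences was -0.03, against 0 over all genes. Rag1 had the largest, -0.55 ± 0.94 (SE, n = 4 each, limma adjusted p = 0.948). With non-pregnant PBS replicates 3 and 4 left out, which changes only the estimate of spread here, it had an SE of 0.18 and a limma adjusted p of 0.629, and 0 of 10 passed, as did 0% of all genes. Its 4 pregnant TiO2 values, all near the floor, did not overlap the 4 pregnant PBS values, although the groups met at 4.08 after rounding. That is 1 gene of 10 lower without overlap, with 1.96% of all genes so, and 0 higher, with 1.86%.

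In non-pregnant mice, TiO2 against PBS, the 10 differences were all below 0, from -2.68 to -0.52 with a median of -1.32, against -0.02 over all genes. Again 0 of 10 passed, with 0.0055% of all genes called, the 1 gene being Atp4a, named after its value was seen, and the lowest adjusted p among the 10 was 0.373. At an unadjusted p under 0.05 there were 7, where 8.49% of all genes had one. The values that set this comparison are those for which the genes were listed, so nothing is read from its direction or that count. Without non-pregnant PBS replicates 3 and 4 the median was 0.01 against 0 over all genes, 5 of the 10 differences were below 0, as were 9165 of all 18193, and 0 passed where 0.0055% of all genes were called. Rag1 was -2.68 ± 0.94 with them and -0.12 ± 0.22 without, and Prss16 was -2.15 ± 0.69 with them and -0.33 ± 0.25 without (SE). Ptcra kept the largest share of its difference, -0.95 ± 0.23 with them and -0.67 ± 0.26 without, at a limma adjusted p of 0.526. Prss16 was also the gene whose groups did not overlap, at 5.18 to 5.52 after TiO2 and 5.67 to 9.72 after PBS, which is 1 gene of 10 lower without overlap, with 2.79% of all genes so, and 0 higher, with 1.71%.

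Pregnancy was compared within each exposure. After PBS the 10 differences, pregnant minus non-pregnant, were again all below 0, from -2.30 for Dntt to -0.48 for Rag2, with a median of -1.10 against 0 over all genes. Of the 10, 0 passed where 0.506% of all genes were called, and 5 had an unadjusted p under 0.05, where 10% of all genes had one. Here too the values for which the genes were listed set the comparison, so nothing is read from its direction or that count. Without the 2 arrays the median was 0.24 against 0.02 over all genes, 9 of 10 differences were above 0, as were 9906 of all 18193, and 0 passed where 0.797% of all genes were called. The exception was Ptcra, at -0.58 ± 0.26 (SE, limma adjusted p = 0.364), whose pregnant PBS values of 4.34 to 5.06 lay below all 4 non-pregnant PBS values. It was the 1 gene of 10 lower without overlap, with 2.02% of all genes so, and 0 were higher, with 2.92%.

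After TiO2, a comparison that uses neither of the 2 arrays in its means, the median of the 10 was -0.03 against 0.03 over all genes. Of the 10, 0 passed, where 0.775% of all genes were called, and 0 had an unadjusted p under 0.05, where 15.8% had one. The 2 arrays widened the SE of each of the 10 genes in this fit, so these counts do not set them below all genes. Cd8b1 had the largest difference, 0.68 ± 0.55 (SE, n = 4 each, limma adjusted p = 0.597). Its pregnant TiO2 values of 6.38 to 6.76 lay above its non-pregnant TiO2 values of 5.64 to 6.10, which is 1 gene of 10 higher without overlap, with 7.48% of all genes so, and 0 lower, with 4.67%. With the 2 arrays out, which changes only the estimate of spread, the same difference had an SE of 0.22 and an adjusted p of 0.149. Several marker lists lay above 0 in this comparison, in which 55.6% of all genes did, and others lay below. The mature T cell genes had a median of 0.43 with 16 of 17 above 0, the cell cycle genes 0.29 with 18 of 19. The B cell genes had 0.89 with 10 of 11, the lymph node genes 0.55 with 4 of 6. The cardiac muscle genes had 0.30 with 7 of 8 and the fat genes 1.35 with 8 of 8. The other thymocyte genes had 0.21 with 13 of 17. Below 0 were the skeletal muscle genes, at -0.89 with 0 of 10 above 0, and the squamous epithelium genes, at -0.91 with 1 of 9. The means of these last lists were 5.71 and 4.90 on pregnant TiO2 replicate 2, and at least 9.41 and 9.65 on the other arrays of that group. The part of these cell types in the difference of Cd8b1 was not tested. Called were Cr2 of the B cell and lymph node lists at 1.01 ± 0.22 (limma adjusted p = 0.0489), Tnnt2 of cardiac muscle at 0.48 ± 0.10 (limma adjusted p = 0.0489), and 1 of the 17 mature T cell genes, Ctla4 at 1.07 ± 0.20 (limma adjusted p = 0.0277), a probe set below the array median on every array. The number of calls over all genes depended on the setting here, with 141 in this fit, 1 with values as deposited and 565 with array weights. Without the 2 arrays 1.37% of all genes were called, among them 3 of 19 cell cycle genes, 2 of 11 B cell genes, 1 of 6 lymph node genes, 2 of 8 cardiac muscle genes and 5 of 17 mature T cell genes, all higher. The last were Ctla4, Cd3d at 0.98 ± 0.17, Thy1 at 0.76 ± 0.11, Icos at 0.58 ± 0.09 and Cd27 at 0.72 ± 0.12 (SE, adjusted p of 0.0193, 0.00846, 0.0119 and 0.0168 for the last 4). Of the genes of early thymocytes, Rag1 was at -0.12 ± 0.94 and Dntt was at -0.22 ± 0.90 with the 2 arrays in the fit, and their SEs were 0.18 and 0.27 without them.

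The difference of the TiO2 response between pregnant and non-pregnant mice was 1.24 in the median of the 10 genes, against 0.03 over all genes, and 0 of 10 passed where 0.0055% of all genes were called, Atp4a alone. Unadjusted p-values under 0.05 came from Ptcra, Prss16 and Cd8b1, where 8.96% of all genes had one. The values for which the genes were listed also set this comparison, so nothing is read from its direction or that count. Without the 2 arrays the median was -0.16 against 0 over all genes, and 0 passed where 0.011% of all genes were called. This comparison and the 2 that use the non-pregnant PBS group share its arrays.

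**Figure D4:**
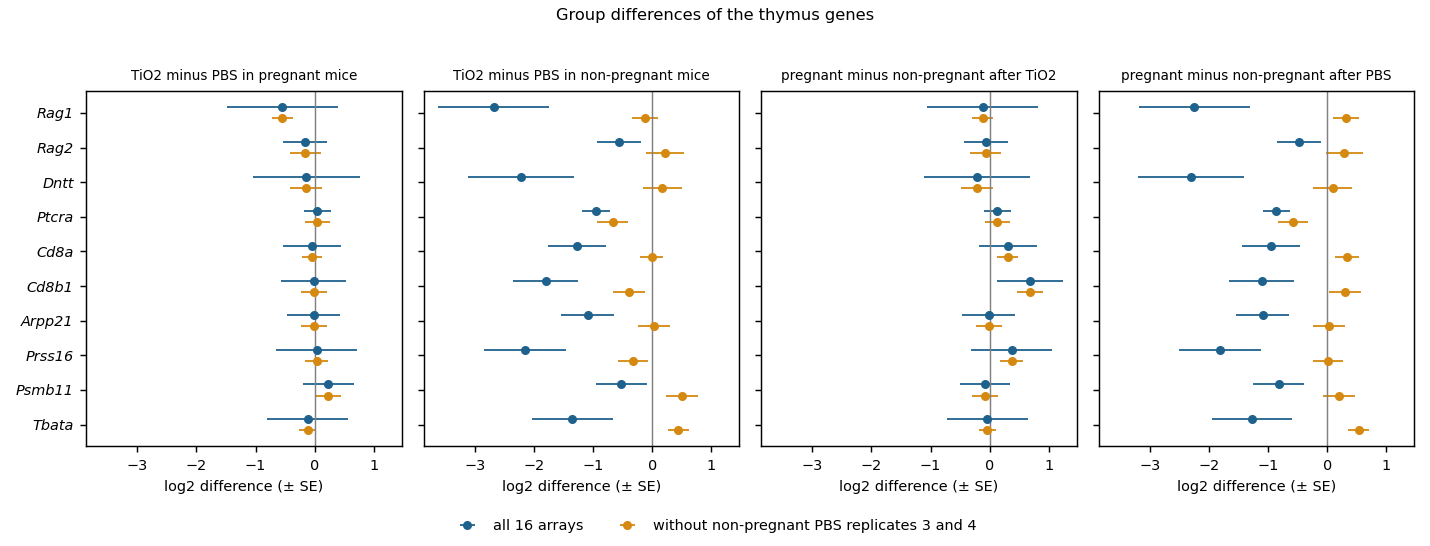
Log2 differences of the 10 thymic genes with standard errors in 4 group comparisons, from all 16 arrays and without non-pregnant PBS replicates 3 and 4. In the 2 comparisons that use the non-pregnant PBS group every difference moves up when those arrays are left out, as for Rag1 after TiO2 in non-pregnant mice, -2.68 and then -0.12, and most standard errors are smaller.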

How the data were processed

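Total lung RNA was hybridised to 1-colour Affymetrix arrays, and the deposited table holds 1 linear intensity for each of 45101 probe sets on each of 16 arrays. The submitters' processing notes name GCOS, MAS5 and RMA, and which of these made the values is not given in the sources used here. Deposited intensities were not scaled between arrays. After 64 control probe sets were left out, they were quantile-normalized on the linear scale, 16 was added and log2 was taken, so differences of dim genes are understated. The number of arrays limits the precision. No detection calls were used here.

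The platform annotation gives 34945 probe sets 1 symbol, 932 several and 9160 none; 34741 of the first matched RefSeq's table, and the brightest probe set stood for each of 18193 genes. Differences were fitted with limma 3.58.1 in R 4.3.3 (lmFit, eBayes, 12 residual degrees of freedom, 5 contrasts). The procedure was tested on simulated data. The simulation drew independent normal values, so it held no group split into high and low arrays as described here. Alternatives covered scaling, pseudocounts of 1 and 64, probe set choice, a filter on dim probe sets, array weights, the spread estimate and arrays left out. Named were the 10 genes, the 10 nearest in profile, up to 4 of each list with the largest range and some preset markers; only examples are printed. The 10 genes and all lists were chosen with earlier results of these data known. The genes of the lists named as over the margin or not over it, or as called by limma, were named after their values were seen.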

Additional observations from a re-analysis of the deposited data

Results flagged for a closer look

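Single arrays lay far from the other 3 of their group for 4 of the 40 pairs of gene and group, where chance alone marks about 1 in 20. Rag1 read 4.53 on non-pregnant TiO2 replicate 1, with 4.02 to 4.11 on the others. Pregnant PBS replicate 2 was high in Rag2, at 5.38 with 4.34 to 4.50 on the others, and in Psmb11, at 5 with 4.24 to 4.32 on the others. Arpp21 was low on pregnant PBS replicate 3, at 5.17 with 5.48 to 5.51 on the others. All 4 values lie below the array median of 5.94. The high values of non-pregnant PBS replicates 3 and 4 are not among these, because a pair of arrays in a group of 4 leaves no single array apart.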

How the results depend on the processing

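The same 2 arrays had the highest counts of thymic genes in all 8 settings tried. Of the 10, the numbers over the margin on non-pregnant PBS replicates 3 and 4 and the highest elsewhere were 9, 10 and 1 with values as deposited, 9, 10 and 0 with trimmed-mean scaling, 10, 10 and 3 with a pseudocount of 1, 7, 8 and 0 with a pseudocount of 64, 8, 10 and 0 with the mean of a gene's probe sets, and 10, 10 and 2 or 7, 7 and 0 with margins of 0.5 or 2 log2 units; these settings of the margin count were chosen after seeing the data. In each contrast 0 of the 10 genes were called under every alternative. Without the 2 arrays the median of the 10 was 0.01 for TiO2 in non-pregnant mice, 0.24 for pregnancy after PBS and -0.16 for the interaction; leaving out 1 array at a time it ran from -1.89 to -0.81, from -1.59 to -0.63 and from 0.81 to 1.81, and from -0.15 to 0.06 for TiO2 in pregnant mice and from -0.10 to 0.06 for pregnancy after TiO2. Of 1250 values of single genes, 35 moved by at least 1 SD. Calls over all genes depended more on the setting. For pregnancy after TiO2 there were 141, and 1 with values as deposited, 70 with trimmed-mean scaling, 55 and 240 with pseudocounts of 1 and 64, 233 with the filter, 565 with array weights, 260 with a trended and robust spread, 249 without the 2 arrays and 14 with the array of conflicting labels as pregnant PBS. For pregnancy after PBS there were 92, and 19 with values as deposited, 145 without the 2 arrays and 0 with the conflicting array as pregnant PBS. For TiO2 in non-pregnant mice the 1 call became 0 with values as deposited, trimmed-mean scaling, a pseudocount of 64, the filter, the trended spread and the conflicting array as pregnant PBS. For the interaction the 1 call became 0 with values as deposited, a pseudocount of 64, the filter and the conflicting array as pregnant PBS, and 2 with the mean of probe sets and without the 2 arrays. With 1 array left out, calls ran from 0 to 1 for TiO2 in pregnant and in non-pregnant mice, 14 to 234 and 36 to 157 for pregnancy after TiO2 and after PBS, and 1 to 2 for the interaction. The causes were not tested. The filter, above the array median on at least 4 arrays, kept 3 of the 10 genes, Prss16, Cd8a and Cd8b1, and gives no median. No paired analysis was possible because the labels give no replicate numbers. The dimness of Rag2, Ptcra and Psmb11, at or under the array median on nearly all arrays, limits what their values can show.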
